A study of Mus musculus with 14 samples.

Results

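The cell cycle and DNA replication genes described here are 40 genes of G1 control, S phase and mitosis, which were read across mouse corneal stroma and stromal cells in culture. For each gene the brightest probe set, by mean signal over the arrays, was taken, and only probe sets annotated with a single gene were used. On that basis 37 of the 40 genes were measured, out of 8251 genes that the array could name. They were 7 of 7 genes of G1 control, 15 of 16 of S phase and 15 of 17 of mitosis. No probe set was named for the cyclin Ccnb1 or for the spindle checkpoint kinase Bub1b, and the probe sets of the thymidylate synthase gene Tyms are shared with a pseudogene, so these 3 genes have no values.

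Each of 14 RNA samples was hybridised to its own Affymetrix MG_U74Av2 array. Stroma was dissected from CD-1 mice at postnatal day 10 (P10, 2 arrays) and at 7 to 8 weeks of age (adult, 3 arrays). Stromal cells of 7 to 8 week old CD-1 mice were put into primary culture in DMEM with 1% platelet-poor horse serum (keratocyte culture, 3 arrays), in DMEM with 10% fetal bovine serum (fibroblast culture, 3 arrays), or in the latter medium with 10 ng/ml TGF-beta1 added (myofibroblast culture, 3 arrays). No mice carried an engineered allele by the labels. The labels call the arrays of a group replicates without saying whether they came from separate animals or cultures, so the p-values measure only the spread between these samples, which may be technical. The time in culture, the passage and the cell density are not given in the sources used here.

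A cell that leaves rest for a new division passes from G1, where D-type cyclins with Cdk4 act on the retinoblastoma protein and release E2F transcription factors, into S phase, where DNA is copied, and then into mitosis. Many S-phase genes are E2F targets, with a site close to the start of the gene, while many mitotic genes are known for a cell cycle homology region (CHR) with CCAAT boxes beside it, and are made later in the cycle. Keratocytes of the adult cornea are known to rest between wounds and to divide when cultured in serum.

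Promoter sequence is shown for 8 members to place the S-phase and mitotic classes side by side. Cdk1, Cdc20, Kif11 and Bub1 are mitotic genes that rose in culture, Rrm1 and Rrm2 are the S-phase genes that rose in all 3 cultures, and Cdc6 and Pola1 are S-phase genes with an E2F match. Each line gives the 200 bases before the annotated start, 5′ to 3′ on the gene's own strand, from RefSeq on the mouse build GRCm38.p6. Capitals mark matches to an E2F-like motif (TTTNNCGC, N being any base), to the CHR (TTTGAA) or to CCAAT, and a match on the opposite strand is in capitals as its reverse complement.
Cdk1, chr10:69352913-69353112, minus strand: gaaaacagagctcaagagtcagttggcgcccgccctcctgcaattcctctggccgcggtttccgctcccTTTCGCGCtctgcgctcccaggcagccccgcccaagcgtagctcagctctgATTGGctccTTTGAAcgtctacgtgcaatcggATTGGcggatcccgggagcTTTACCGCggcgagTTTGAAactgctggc
Cdc20, chr4:118437344-118437543, minus strand: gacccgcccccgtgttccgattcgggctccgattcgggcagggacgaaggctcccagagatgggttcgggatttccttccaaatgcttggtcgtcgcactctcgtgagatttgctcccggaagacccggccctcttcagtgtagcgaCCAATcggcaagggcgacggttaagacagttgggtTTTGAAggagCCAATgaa
Kif11, chr19:37376182-37376381, plus strand: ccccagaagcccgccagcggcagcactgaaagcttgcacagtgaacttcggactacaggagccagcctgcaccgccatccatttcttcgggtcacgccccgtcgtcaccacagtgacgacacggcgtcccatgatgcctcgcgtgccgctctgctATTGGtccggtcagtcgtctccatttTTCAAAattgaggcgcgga
Bub1, chr2:127831860-127832059, minus strand: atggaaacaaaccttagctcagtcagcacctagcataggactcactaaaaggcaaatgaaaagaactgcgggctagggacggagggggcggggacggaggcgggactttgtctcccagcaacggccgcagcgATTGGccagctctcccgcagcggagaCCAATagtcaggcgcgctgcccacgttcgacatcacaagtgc
Rrm1, chr7:102441495-102441694, plus strand: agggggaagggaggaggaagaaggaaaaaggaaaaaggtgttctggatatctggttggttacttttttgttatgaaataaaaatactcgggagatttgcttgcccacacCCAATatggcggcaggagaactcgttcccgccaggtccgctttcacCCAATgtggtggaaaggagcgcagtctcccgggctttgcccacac
Rrm2, chr12:24708054-24708253, plus strand: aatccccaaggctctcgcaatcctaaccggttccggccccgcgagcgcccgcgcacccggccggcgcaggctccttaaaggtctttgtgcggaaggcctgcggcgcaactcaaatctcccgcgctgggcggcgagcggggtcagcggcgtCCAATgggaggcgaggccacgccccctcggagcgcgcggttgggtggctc
Cdc6, chr11:98907951-98908150, plus strand: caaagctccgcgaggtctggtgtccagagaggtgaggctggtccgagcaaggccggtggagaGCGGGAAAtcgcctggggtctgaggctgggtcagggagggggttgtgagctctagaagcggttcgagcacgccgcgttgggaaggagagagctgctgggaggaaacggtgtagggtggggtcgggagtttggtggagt
Pola1, chrX:93632156-93632355, minus strand: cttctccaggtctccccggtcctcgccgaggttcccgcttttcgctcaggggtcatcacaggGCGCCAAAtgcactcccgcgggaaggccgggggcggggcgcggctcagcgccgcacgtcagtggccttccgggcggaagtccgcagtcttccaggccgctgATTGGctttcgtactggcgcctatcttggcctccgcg

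In the capitals, Cdk1 carries all 3 motifs, with a TTTGAA 71 bases and another 15 bases before the start. Cdc20 and Kif11 have a TTTGAA near the start, at 18 and 19 bases, with CCAAT matches close to it. Bub1 shows CCAAT alone within this stretch, as do Rrm1 and Rrm2. Cdc6 and Pola1 each have an E2F-like match 138 bases before the start.

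The same search was run over windows from 250 bases before to 50 bases after the start, on both strands, for the 38 RefSeq entries of 34 members. Ccna2, Ccnd1, Ccnd2, Mcm4, Aurkb and Cdc25c are named only. TTTNNCGC was present in 8 of 18 entries of S-phase genes and 1 of 14 entries of mitotic genes, against 5.17% of all 32851 windows. TTTGAA was present in 10 of 14 entries of mitotic genes and 2 of 18 entries of S-phase genes, against 17.9% of all windows. CCAAT was in 12 of 14 mitotic and 12 of 18 S-phase entries, against 37.4%. Among G1 control genes the counts were 1, 0 and 2 of 6 entries in the same order. Matches to different motifs overlapped 1 time among the members. A match is a match of letters and not a measured binding site, and a window without one shows only that these letters are not in it.

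Signals are the deposited linear values. The array carries 19 control probe sets whose transcripts had not been spiked in, and a signal below 137.7, the 95th percentile of their values, is called within background here, as were 54.9% of all values. Mean signals above that level were reached by 4 of 7 G1 genes, 11 of 15 S-phase genes and 10 of 15 mitotic genes. Where a group lies within background, its values have no firm order and the size of a difference against it depends on background. Median signals per array were between 102 and 135.6, and with no read counts behind them the precision is set by how many arrays there are. Differences are of log2(signal + 16), which understates the change of dim genes, and were tested with limma over 10370 probe sets with Benjamini-Hochberg adjustment, a gene being called when the adjusted p was below 0.05. In bulk RNA of this kind, fewer cells of a type and less RNA per cell cannot be told apart.

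Set against defining markers, the groups were in part as labelled. The contractile genes Acta2, Tagln, Cnn1 and Myl9, which mark myofibroblasts, had a summed signal of 1098 to 2073 in adult stroma, 7812 to 9015 in keratocyte, 2412 to 7507 in fibroblast and 6534 to 7684 in myofibroblast culture, so they were as high in the keratocyte as in the myofibroblast cultures. The 8 keratocyte markers summed to 17098 to 18273 in adult stroma and to 8326 to 18016, 8020 to 14952 and 7254 to 9362 in the cultures in the same order. Lens markers, of which all 6 were measured, summed to 4963 to 8201 in adult stroma and to at most 780 in culture. Fibroblast replicate 3 had the lowest contractile sum of the cultures (2412) and stands apart in the S-phase genes, and the counts that rest on it are given with and without it.

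**Figure D1:**
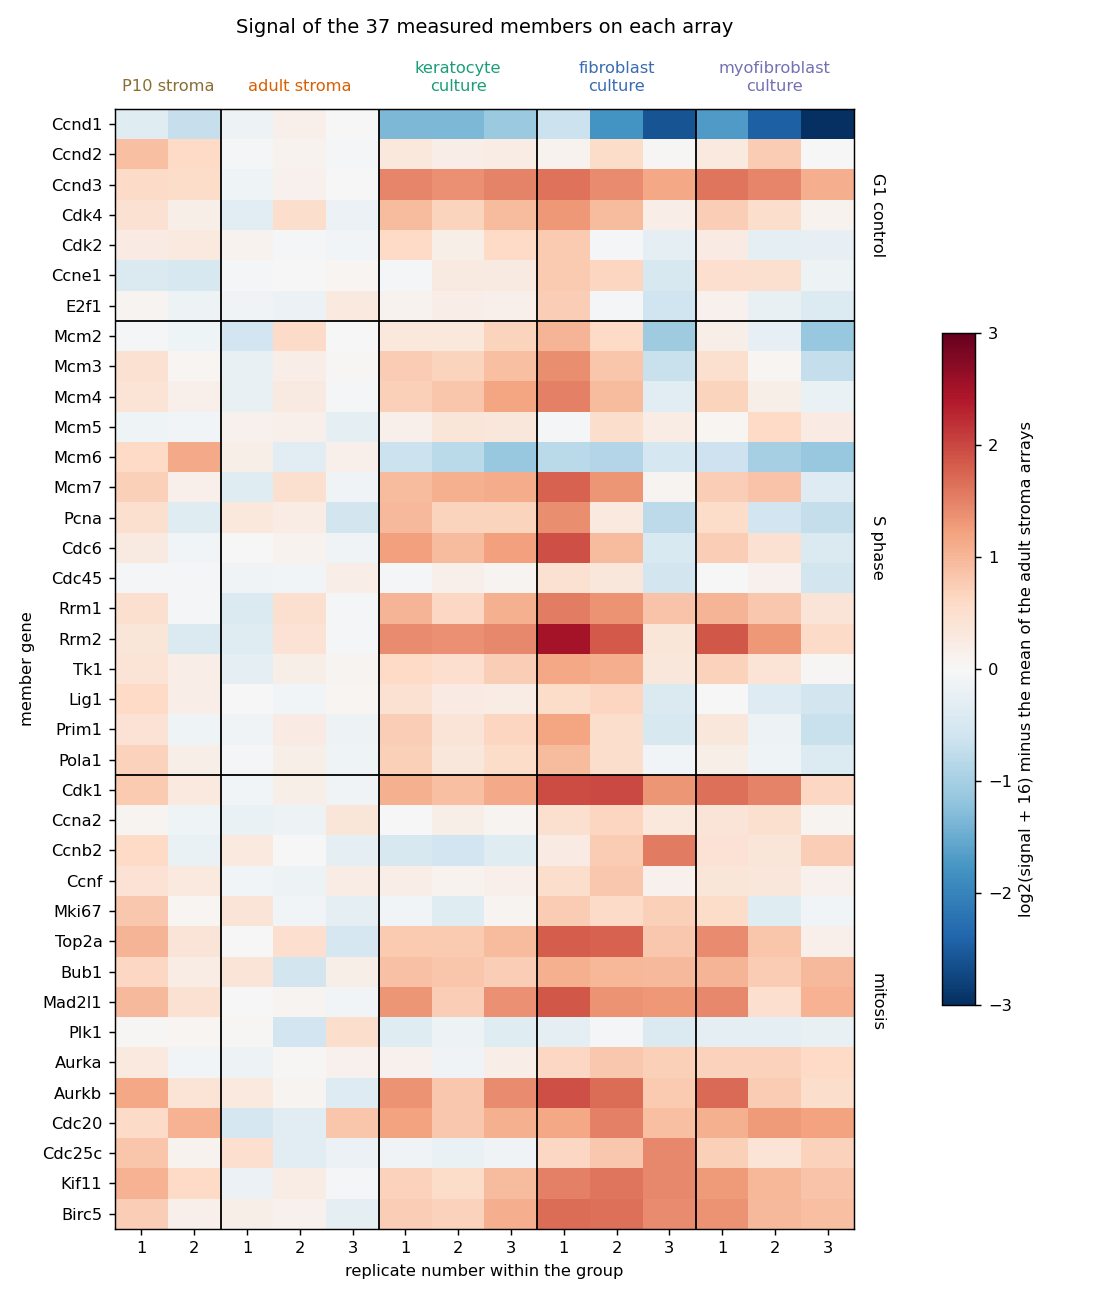
The plot shows the 37 measured genes (rows, by class) on the 14 arrays (columns, by group and replicate number), coloured by log2(signal + 16) minus the gene's mean over the 3 adult arrays. Mitotic genes are above the adult level on nearly all fibroblast arrays (median of group differences 1.01), while S-phase genes are above it on fibroblast replicates 1 and 2 and mostly not on replicate 3.

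From adult stroma to culture, mitotic genes made up most of the members that rose in the fit of all 14 arrays. In keratocyte and fibroblast culture this did not hold in every alternative. In keratocyte culture 11 members rose and 2 fell, against 21.8% and 9.25% of all probe sets (31.1% in either direction). The risers were 2 of 7 G1, 2 of 15 S-phase and 7 of 15 mitotic genes. In fibroblast culture 16 members rose and 2 fell, against 18.4% and 12.3% of all probe sets (30.8% in either direction), and the risers were 2 of 7 G1, 3 of 15 S-phase and 11 of 15 mitotic genes. In myofibroblast culture 11 members rose and 2 fell, against 17.5% and 15.5% (33% in either direction), and 1 of 7 G1, 2 of 15 S-phase and 8 of 15 mitotic genes were among those that rose. The 2 that fell were Ccnd1 and Mcm6 in each of the 3 cultures. These 3 comparisons share the adult arrays. Of the mitotic risers, Cdk1 and Cdc20 in each culture and Ccnb2 in fibroblast culture had means above background in both groups. For the other mitotic risers the adult mean, or both means, lay within background, so the size of their rise is not firm. The S-phase risers Rrm1, Rrm2 and Tk1 had both means above background. For Rrm2 the adult mean (143) was only just above it, and adult replicates 1 and 3 (104 and 133) lay within it, so the size of its rise is not firm either. The S-phase counts depended on the fit and on single arrays. With only the adult and keratocyte arrays in the fit 19 members rose in keratocyte culture, and they were 9 S-phase, 8 mitotic and 2 G1 genes. The 13 members called in keratocyte culture became 6 without keratocyte replicate 3, 7 without keratocyte replicate 1, and 8 without adult replicate 1 or adult replicate 3, and of S-phase genes 0, 0, 0 and 1 rose in these fits, beside 5, 5, 6 and 6 mitotic genes. In fibroblast culture 10 of 15 S-phase genes rose when fibroblast replicate 3 was left out, beside 10 of 15 mitotic genes, and 1 rose without fibroblast replicate 1 or adult replicate 1. In myofibroblast culture no S-phase gene rose without adult replicate 1, adult replicate 3, myofibroblast replicate 1 or myofibroblast replicate 2.

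The median differences over each class ran as follows. From adult stroma to keratocyte culture the median was 0.25 for G1 genes, 0.61 for S-phase genes and 0.73 for mitotic genes, where the median of all probe sets was 0.12. To fibroblast culture it was 0.23, 0.46 and 1.01 in the same order, with 0.0405 for all probe sets. To myofibroblast culture it was 0.28, -0.061 and 0.80, with -0.011 for all. S-phase and mitotic genes thus had similar medians in keratocyte culture, and their order was not fixed. Without adult replicate 2 the S-phase median there (0.73) was above the mitotic median (0.54). With an added constant of 64 it was above it too (0.53 and 0.37), while with a constant of 1 the medians were 0.64 and 0.93. In the other 2 cultures the mitotic median was above the S-phase median. Without fibroblast replicate 3 the S-phase median in fibroblast culture was 0.85 and the mitotic median 1.03, and without fibroblast replicate 1 they were 0.21 and 1.15. The S-phase median in myofibroblast culture changed sign to 0.27 without myofibroblast replicate 3, to 0.035 without adult replicate 2 and to 0.079 with the filter at a mean signal of 100, and it was -0.22 without myofibroblast replicate 1.

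**Figure D2:**
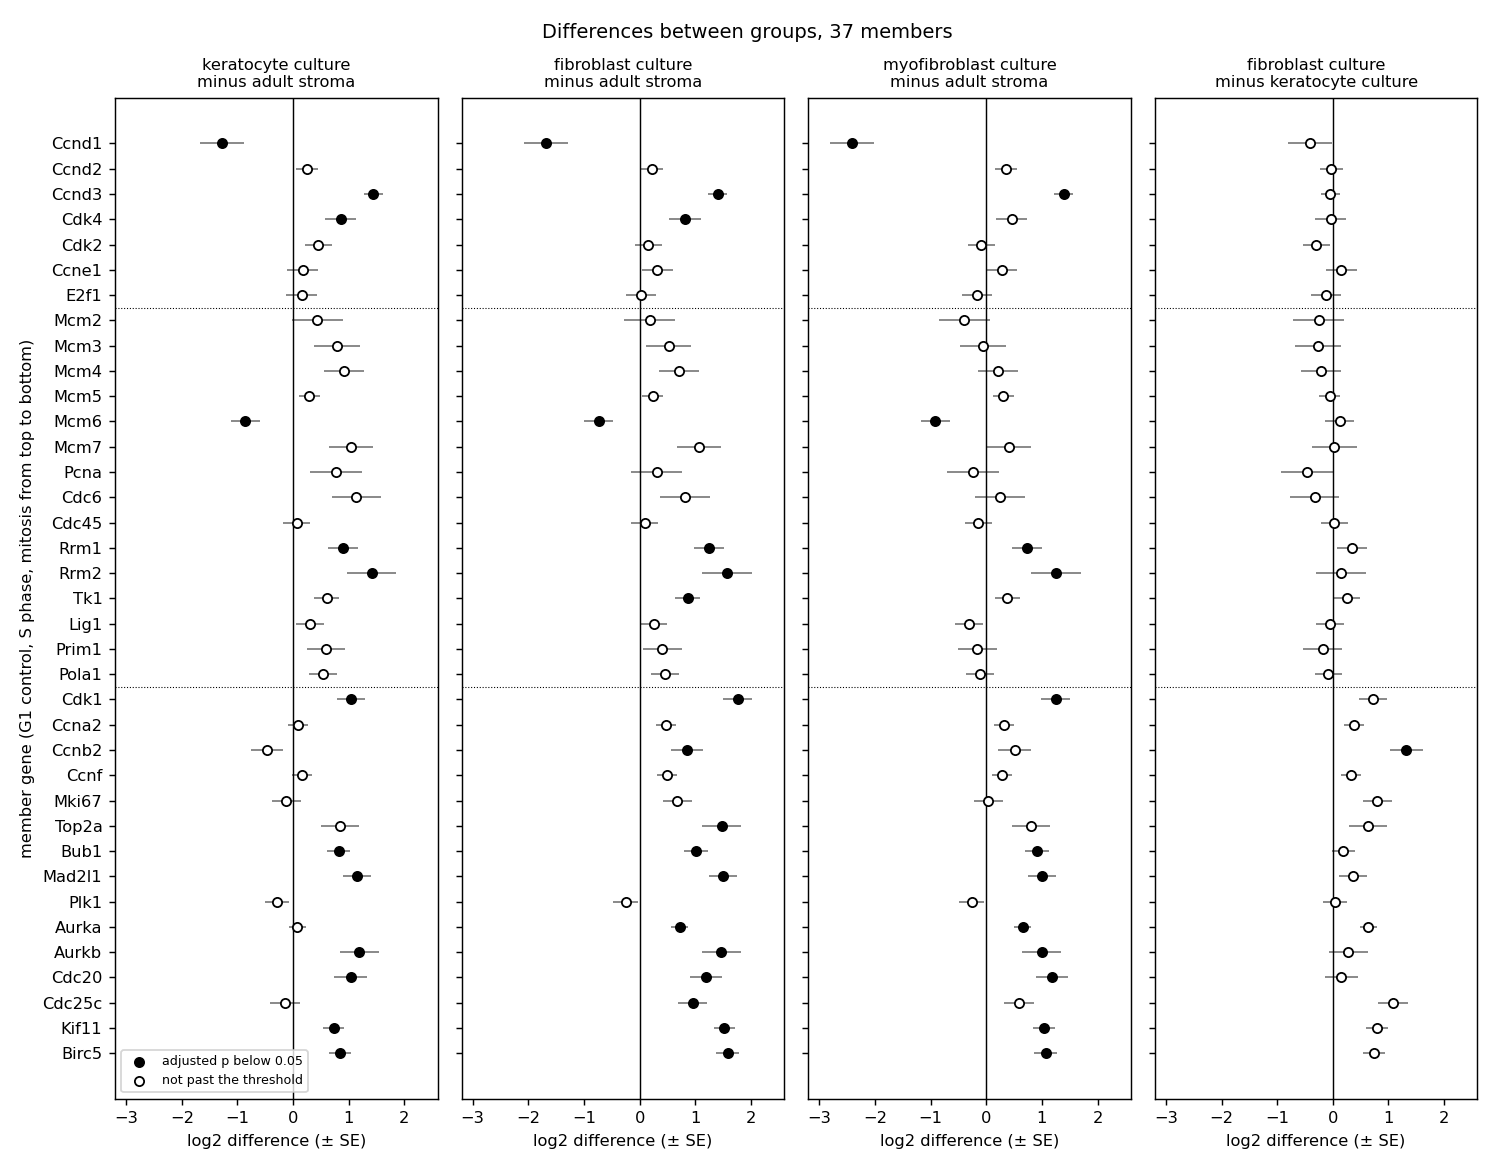
Each panel plots the log2 difference (± SE) of the 37 genes in 1 comparison, with filled points for adjusted p below 0.05 in limma. Ccnd3 lies to the right and Ccnd1 to the left in all 3 comparisons with adult stroma, and in fibroblast minus keratocyte culture all 15 mitotic genes lie to the right of 0 with 1 of them, Ccnb2, filled.

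The D-type cyclins, which bind Cdk4 and sense growth signals, went different ways. Ccnd1 (cyclin D1) had signals of 946 and 756 in P10 stroma and 1095, 1357 and 1243 in adult stroma. It was at 470.3, 472 and 555 in keratocyte culture, at 774, 341 and 191 in fibroblast culture, and at 369, 210.4 and 130.4 in myofibroblast culture. Every culture array was below every tissue array except that fibroblast replicate 1 was above P10 replicate 2, and the last myofibroblast value is within background. Against adult stroma Ccnd1 fell by 1.28 ± 0.40 (SE) in keratocyte culture (adjusted p = 0.0245), fell by 1.68 ± 0.40 in fibroblast culture (0.00503) and fell by 2.41 ± 0.40 in myofibroblast culture (0.000299). The fall in keratocyte culture was lost when any 1 of adult replicate 2, adult replicate 3 or the 3 keratocyte arrays was left out (adjusted p up to 0.069). A second Ccnd1 probe set was lower in the same 3 comparisons, by -0.65, -0.94 and -1.28, with adjusted p = 0.0229, 0.00232 and 0.000174.

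Markers of corneal epithelium, of which Aldh3a1 is counted among the keratocyte markers too, fell in the same comparisons. Of 10 such markers that passed the filter on low values 9 fell in keratocyte culture, and all 10 fell in the other 2 cultures. Their summed signal went from 23964 to 25969 in adult stroma to 716 to 4496 in keratocyte, 638 to 4163 in fibroblast and 410 to 512 in myofibroblast culture, and the hemidesmosome genes Col17a1 and Itgb4 were listed at the floor on every culture array. Markers of macrophages and leukocytes went the other way and rose for 7 of 11 genes in keratocyte, 7 of 11 in fibroblast and 3 of 11 in myofibroblast culture, while 0, 1 and 3 fell. Their summed signal was 1255 to 1631 in adult stroma, 3368 to 4270 in keratocyte, 1684 to 3134 in fibroblast and 1484 to 2309 in myofibroblast culture. Of pigment cell markers 4 of 4 rose in keratocyte culture, where they summed to 1862 to 2221 against 612 to 749.8 in adult stroma, and 0 of 4 were called in the other 2 cultures. An RNA measure moved with these comparisons too. Gapdh probe sets at the 3′ and 5′ ends of the transcript, whose ratio is a measure of RNA integrity, gave 3′/5′ ratios of 2.12, 0.908 and 1.04 on the adult arrays and of 0.756 to 0.859 on the 9 culture arrays, without overlap. The part of RNA from other cell types or of RNA integrity in the level of Ccnd1, or of any other member, was not tested.

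Ccnd3 (cyclin D3) moved the opposite way. Its signals were 223 and 222 in P10 and 131, 161 and 146 in adult stroma. In culture they were 433, 399.7 and 437 (keratocyte), 483, 417 and 342 (fibroblast), and 479, 432 and 329.7 (myofibroblast). All 9 culture arrays were above all 5 tissue arrays, and the 3 kinds of culture overlapped. The rise over adult stroma was 1.44 ± 0.17 (SE, adjusted p = 1.76e-05), 1.40 ± 0.17 (2.3e-05) and 1.39 ± 0.17 (2.18e-05) in the order of the cultures, and it was called in every alternative run. Ccnd2 (cyclin D2) was at 229 and 182 in P10 stroma, 112, 125 and 109 in adult stroma, 149, 136 and 137 in keratocyte, 125, 175 and 119 in fibroblast, and 146, 208 and 115 in myofibroblast culture. Its values lay near background in all groups but P10, and no comparison was called.

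Cdk4, the kinase partner of the D-type cyclins, had signals of 621 and 506 in P10 and 349, 652 and 396 in adult stroma. They were 879, 727 and 878 in keratocyte, 1133, 879 and 518 in fibroblast, and 762, 652 and 483 in myofibroblast culture. Cdk4 rose by 0.85 ± 0.28 (SE) in keratocyte (adjusted p = 0.032) and by 0.82 ± 0.28 in fibroblast culture (0.0402). Fibroblast replicate 3 overlapped the adult arrays, and both calls were lost under centring and without single arrays (adjusted p up to 0.129 and 0.175). A second Cdk4 probe set was called in the same 2 comparisons and also in myofibroblast culture (1.23, adjusted p = 0.0171).

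The other G1 genes lay at or near background. E2f1, a transcription factor that drives S-phase genes, was at 100.3 and 81.5 in P10, 84.9, 80.7 and 117 in adult, 102, 109 and 106 in keratocyte, 167, 89.3 and 55.8 in fibroblast, and 104, 77.3 and 66.8 in myofibroblast samples. Only fibroblast replicate 1 was above background for E2f1. Cdk2, the partner of cyclins E and A, ran from 82.9 to 190.2 over the 14 arrays and Ccne1 (cyclin E1) from 52.1 to 147. With these probe sets none of the 3 was called in any comparison. A second Cdk2 probe set, whose group means are all within background (82.3 to 129.7), was lower than in adult stroma in fibroblast (-0.44, adjusted p = 0.0416) and myofibroblast culture (-0.57, 0.0101).

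Of the S-phase genes, those for ribonucleotide reductase, the enzyme that makes deoxynucleotides, stood out in culture. Rrm2, its small subunit, had signals of 183 and 98.2 in P10 and 104, 192 and 133 in adult stroma. It was at 400.1, 382 and 406 in keratocyte culture, at 859, 534 and 183 in fibroblast culture, and at 549.6, 363 and 216 in myofibroblast culture. All culture arrays but fibroblast replicate 3 were above all tissue arrays. Adult replicates 1 and 3 lay within background, so the size of the rise is not firm. The rise over adult stroma was 1.41 ± 0.45 (SE, adjusted p = 0.0266) in keratocyte, 1.56 ± 0.45 (0.0157) in fibroblast and 1.25 ± 0.45 (0.045) in myofibroblast culture. Each of these calls was lost when some single arrays were left out, among them adult replicate 1 in all 3 (adjusted p up to 0.0974, 0.0796 and 0.175).

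Rrm1, the large subunit, was at 339.8 and 228 in P10 and at 173, 339 and 228 in adult stroma. Its signals were 497, 376 and 513 in keratocyte, 720.5, 631 and 441 in fibroblast, and 501, 428 and 314 in myofibroblast culture. The fibroblast arrays were all above the tissue arrays, and the rise of 1.24 ± 0.26 (SE, adjusted p = 0.00243) was called in every alternative run. In keratocyte culture Rrm1 rose by 0.90 ± 0.26 (adjusted p = 0.0183) and in myofibroblast culture by 0.74 ± 0.26 (0.0459), where the arrays overlapped adult stroma. These calls reached adjusted p of 0.0885 and 0.192 under other settings. Tk1 (thymidine kinase), which salvages thymidine, was at 335 and 286 in P10, 203, 282 and 259 in adult, 378, 353 and 419 in keratocyte, 567, 538 and 318 in fibroblast, and 407, 332 and 254 in myofibroblast samples. It rose in fibroblast culture alone among the comparisons tested (0.86 ± 0.23, adjusted p = 0.01). That call was lost without adult replicate 1 or fibroblast replicate 1, and with the median over both Tk1 probe sets, of which the second lay within background.

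The Mcm genes encode subunits of the helicase that opens DNA for copying, and most of them were high on fibroblast replicate 1 and low on replicate 3. Mcm2 was at 136 and 128 in P10, 89, 218 and 142 in adult, and 179, 181 and 235 in keratocyte samples. It was at 303, 222 and 59 in fibroblast and 162, 117 and 55.9 in myofibroblast culture. Mcm3, Mcm4 and Mcm7 had the same order of arrays in fibroblast culture, from 718, 452 and 505 on replicate 1 to 158, 116 and 146 on replicate 3. None of these 4 was called against adult stroma.

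With the probe set used Mcm5 did not follow that order, and for Mcm6 no order can be read. Mcm5 was at 574 and 601 in P10, 698, 702 and 518 in adult, 708, 822 and 802 in keratocyte, 616, 920.3 and 739 in fibroblast, and 664, 968 and 754 in myofibroblast samples, with no call. The Mcm5 probe set that was not used had group means of 464 in P10, 315 in adult, 606 in keratocyte, 609 in fibroblast and 290 in myofibroblast samples, also without a call. Its lowest mean was in myofibroblast culture, where the probe set used had its highest, so the Mcm5 probe sets disagreed. Mcm6 was at 58.1 and 92.2 in P10, 40.1, 23.2 and 38.5 in adult, 15.5, 12.2 and 6.47 in keratocyte, 12.2, 10.9 and 18.1 in fibroblast, and 16, 8.59 and 6.57 in myofibroblast samples. All of its values lie within background, so its calls as lower in culture have no firm size, and in each culture the call was lost under some alternatives (adjusted p up to 0.0991, 0.142 and 0.0582).

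Pcna, the sliding clamp of DNA polymerase, had signals of 732 and 399.9 in P10 and 643, 609.8 and 349.5 in adult stroma. It was at 1029.6, 824 and 836 in keratocyte, 1392, 636 and 293 in fibroblast, and 766, 341 and 309.9 in myofibroblast culture. The keratocyte arrays were above all tissue arrays, but with an adjusted p of more than 0.05 no comparison was called. The origin loading factor Cdc6 ran from 36 to 44.2 in adult stroma, from 92.4 to 115 in keratocyte culture and from 24.6 to 198 in fibroblast culture. The other genes of this class, for the helicase partner Cdc45, DNA ligase Lig1, the primase subunit Prim1 and the polymerase subunit Pola1, were not called in any comparison, and the largest of their differences from adult stroma was that of Prim1 in keratocyte culture (0.59).

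**Figure D3:**
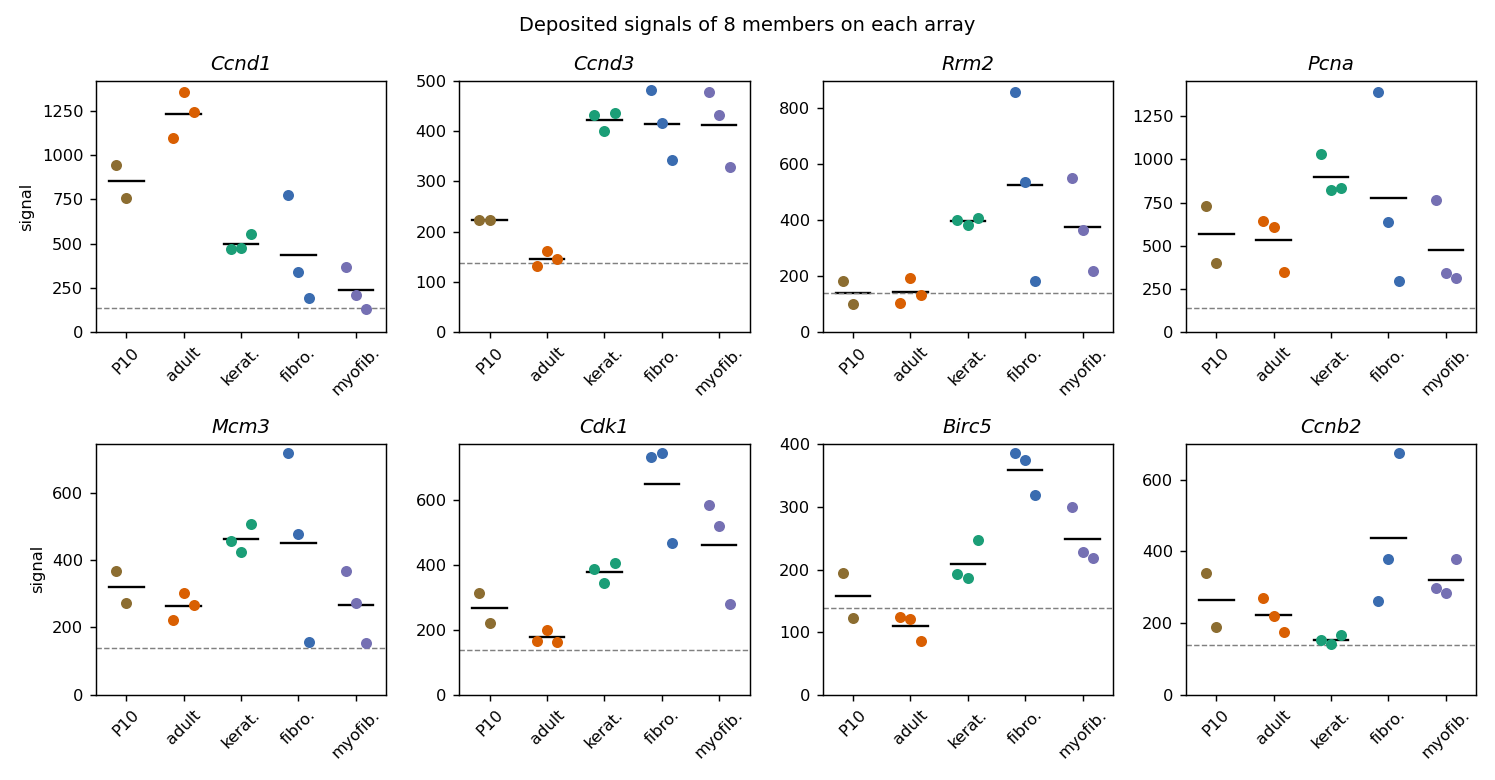
Deposited signals (linear scale from 0) of 8 genes are plotted for each array by group, with a bar at the group mean and a dashed line at the background level of 137.7. In fibroblast culture Rrm2 spans 183 to 859 and Pcna 293 to 1392, while Birc5 spans 319 to 386.

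The mitotic gene Cdk1, the kinase that starts mitosis, was higher in all 3 cultures than in adult stroma. Its signals were 313 and 220.1 in P10 and 166, 201 and 164 in adult stroma. They were 387, 346 and 407 in keratocyte, 735, 746 and 468 in fibroblast, and 584, 522 and 279 in myofibroblast culture. Each of the 9 culture arrays was above the 3 adult arrays, and the fibroblast arrays were above the keratocyte arrays, while the myofibroblast arrays overlapped both and P10 stroma. Cdk1 rose over adult stroma by 1.04 ± 0.26 (SE, adjusted p = 0.00671), 1.76 ± 0.26 (0.000115) and 1.25 ± 0.26 (0.00185) in keratocyte, fibroblast and myofibroblast culture, and these calls held in every alternative run. Between fibroblast and keratocyte culture the difference of 0.72 ± 0.26 was not called (adjusted p = 0.331).

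The cyclins that work with Cdk1 were less uniform. Ccna2 (cyclin A2) was at 299 and 255 in P10, 242, 249.7 and 362 in adult, 282, 321 and 296 in keratocyte, 395, 444 and 355 in fibroblast, and 374, 394 and 298 in myofibroblast samples. No comparison of Ccna2 was called, and adult replicate 3 overlapped the fibroblast arrays. Ccnb2 (cyclin B2) was at 341 and 189.9 in P10, 270.1, 220.5 and 175 in adult, and 153, 141 and 167 in keratocyte samples. In fibroblast culture it was at 262, 379 and 674 and in myofibroblast culture at 299, 285 and 379. Its highest value was on fibroblast replicate 3, the array where most S-phase genes were lowest. Ccnb2 rose over adult stroma by 0.85 ± 0.29 (SE) in fibroblast culture (adjusted p = 0.0398), a call lost in 7 of 16 alternatives (adjusted p up to 0.178). Ccnf, which encodes a ubiquitin ligase subunit, ran from 69.1 to 149.7 and was not called.

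Birc5 and Aurkb of the chromosome passenger complex and Mad2l1 and Bub1 of the spindle checkpoint rose in all 3 cultures. Birc5 (survivin), a passenger complex subunit, was at 194 and 122 in P10 and 125, 121 and 85.3 in adult stroma. It was at 193, 187 and 248 in keratocyte, 386, 374 and 319 in fibroblast, and 299.7, 229 and 218 in myofibroblast culture. The 3 adult values are within background and below all culture values, and the fibroblast values were above all others. The rise was 0.84 ± 0.20 (SE, adjusted p = 0.00573), 1.58 ± 0.20 (3.51e-05) and 1.07 ± 0.20 (0.000976) in the order of the cultures. Its kinase partner Aurkb was at 319 and 183 in P10, 168, 143 and 99 in adult, 364, 246 and 384 in keratocyte, 558, 461 and 242 in fibroblast, and 474, 239 and 199 in myofibroblast samples. Aurkb rose by 1.19 ± 0.35 (adjusted p = 0.0184), 1.46 ± 0.35 (0.00548) and 1.00 ± 0.35 (0.0417), of which only the rise in fibroblast culture was called in every alternative run.

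Mad2l1, a checkpoint protein that holds back anaphase, was at 162 and 110.0 in P10 and 74.8, 80.7 and 70.2 in adult stroma. It was at 213, 136 and 219 in keratocyte, 314, 214 and 209 in fibroblast, and 232, 114 and 171 in myofibroblast culture. The adult arrays were the lowest 3 of the 14. Mad2l1 rose by 1.15 ± 0.25 (SE, adjusted p = 0.003), 1.50 ± 0.25 (0.000375) and 1.00 ± 0.25 (0.00716). The checkpoint kinase Bub1 ran from 36 to 85.1 in adult stroma, from 113 to 125 in keratocyte, from 134 to 145 in fibroblast and from 114 to 139.8 in myofibroblast culture. Bub1 was called as higher in all 3, by 0.82, 1.01 and 0.91, although most of its values are within background. Birc5, Mad2l1 and Bub1 were called in these 3 comparisons in every alternative run.

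Cdc20, which activates the ligase that starts anaphase, was at 585 and 817 in P10 and at 267, 308 and 703 in adult stroma. It was at 920.2, 694 and 832 in keratocyte, 881, 1142 and 735 in fibroblast, and 828, 969 and 920.2 in myofibroblast culture. Adult replicate 3 stood far above the other 2 adult arrays and overlapped the keratocyte arrays. Cdc20 rose over adult stroma by 1.03 ± 0.29 (SE, adjusted p = 0.0142), 1.19 ± 0.29 (0.00623) and 1.19 ± 0.29 (0.00591). The rise in keratocyte culture was lost under quantile normalization and without adult replicate 1, adult replicate 2 or keratocyte replicate 1 (adjusted p up to 0.0735).

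The motor Kif11, which separates spindle poles, had signals of 64.6 and 43.8 in P10 and 18.5, 29.8 and 22.2 in adult stroma. They were 46.9, 41.5 and 60.3 in keratocyte, 96.6, 104 and 90 in fibroblast, and 78.4, 62.1 and 55.4 in myofibroblast culture. All are within background, so their order is not firm. The fibroblast arrays were the highest 3 and the adult arrays the lowest 3, and the other groups overlapped. Kif11 was called as higher in keratocyte (0.73, adjusted p = 0.00981), fibroblast (1.52, 2.99e-05) and myofibroblast culture (1.04, 0.000784), and the keratocyte call was lost without keratocyte replicate 3 (adjusted p = 0.0588). The spindle pole kinase Aurka was likewise dim, at 85.4 and 62.3 in P10, 58.3, 69.5 and 74.1 in adult, 75.5, 61.4 and 79.1 in keratocyte, 112, 129 and 121 in fibroblast, and 118, 118 and 109 in myofibroblast samples. It was called as higher than in adult stroma in fibroblast (0.72, adjusted p = 0.00276) and myofibroblast culture (0.65, 0.00493), while in keratocyte culture the difference was 0.078 and not called.

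Top2a, the topoisomerase that untangles chromosomes, was at 178 and 109 in P10, 78.4, 121 and 52.1 in adult, 148, 149.9 and 169 in keratocyte, 324, 312 and 152 in fibroblast, and 239, 156 and 90.1 in myofibroblast samples. It rose in fibroblast culture (1.47 ± 0.34, SE, adjusted p = 0.00469). Mki67, the gene of the proliferation marker Ki-67, was at 402 and 233 in P10 and 297, 208 and 177 in adult stroma. It was at 209, 170.4 and 235 in keratocyte, 386, 337 and 374 in fibroblast, and 335, 169 and 209.8 in myofibroblast culture. Its fibroblast arrays were above all adult and keratocyte arrays, but Mki67 was not called in any comparison (adjusted p = 0.0629 and 0.235 for these 2). The phosphatase gene Cdc25c, dim throughout at 26.2 to 127, was called as higher in fibroblast culture than in adult stroma (0.95, adjusted p = 0.0151). That call was lost in 3 of 15 alternatives, with only those groups in the fit, without adult replicate 2 and without fibroblast replicate 3 (adjusted p up to 0.076).

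For the mitotic kinase Plk1 the probe sets disagreed. The one with the highest mean signal had group means of 461 in P10, 466 in adult, 360.1 in keratocyte, 373 in fibroblast and 368 in myofibroblast samples, with no call. A dimmer one had means of 117, 85.4, 109.5, 236 and 213 in the same order. It was higher in fibroblast culture than in adult stroma (1.31, adjusted p = 6.58e-05) and than in keratocyte culture (0.99, 0.0164), and higher in myofibroblast culture than in both (1.18, 0.000144 and 0.87, 0.00927). The counts of members above use the first.

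The level of a class on an array, the mean log2(signal + 16) over its measured genes, set S phase and mitosis side by side. The mitotic level was 7.10 ± 0.058 (SD, n = 3) in adult stroma, 7.57 ± 0.12 (n = 3) in keratocyte, 8.13 ± 0.12 (n = 3) in fibroblast and 7.80 ± 0.20 (n = 3) in myofibroblast culture, and 7.56 ± 0.30 (n = 2) in P10 stroma. Fibroblast and keratocyte cultures did not overlap, nor did adult stroma and any other group. Myofibroblast, keratocyte and P10 samples overlapped one another, and myofibroblast replicate 1 (8.02) was above fibroblast replicate 3 (8.00). The S-phase level was 7.50 ± 0.18 in adult stroma, 8.10 ± 0.073 in keratocyte, 8.03 ± 0.69 in fibroblast and 7.58 ± 0.42 in myofibroblast culture (SD, n = 3 each), and 7.72 ± 0.23 (n = 2) in P10 stroma. In the fibroblast and myofibroblast cultures the S-phase level thus spread more widely between arrays than the mitotic level. In keratocyte culture it did not (SD 0.073 against 0.12). These levels are a description without a test, because the members were chosen with results known.

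**Figure D4:**
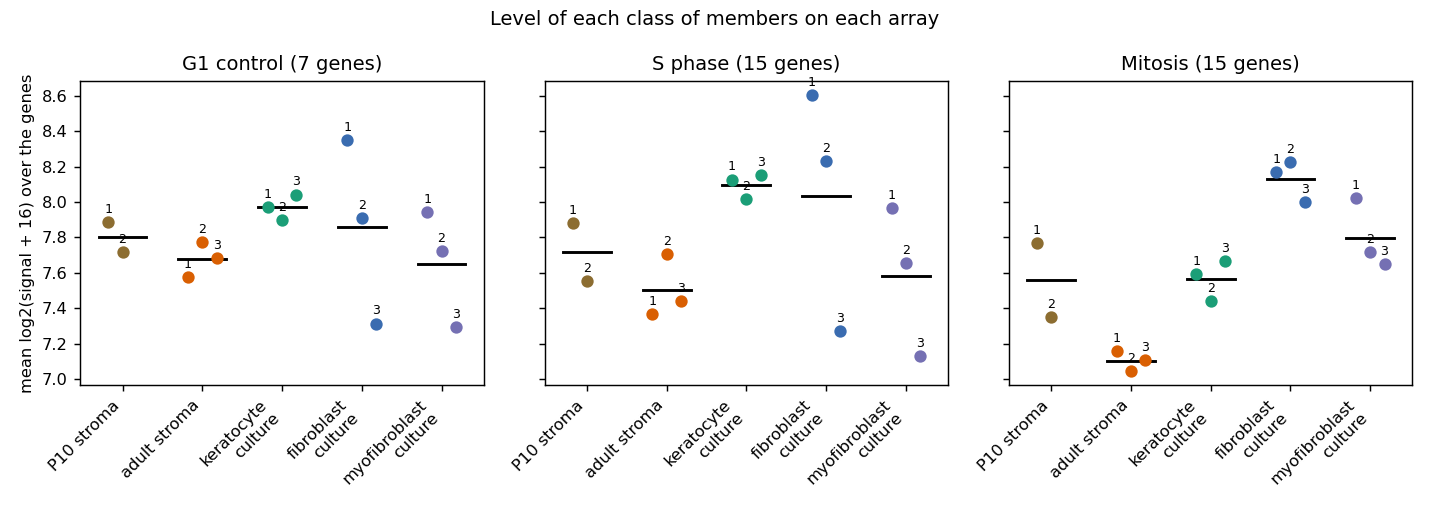
The 3 panels plot the level of each class (mean log2(signal + 16) over its genes) for each array, numbered by replicate, with a bar at the group mean. S-phase levels in fibroblast culture run from 7.27 on replicate 3 to 8.61 on replicate 1, while the mitotic levels of the same arrays run from 8.00 to 8.23.

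The S-phase level minus the mitotic level was 0.53, 0.58 and 0.49 on the keratocyte arrays. On the fibroblast arrays it was 0.44, 0.0006 and -0.73, and on the myofibroblast arrays -0.056, -0.063 and -0.52. The keratocyte values were above all values of the other 2 cultures. In adult stroma it was 0.20, 0.66 and 0.33, and in P10 stroma 0.11 and 0.20, so adult replicate 2 was above the keratocyte arrays and the other tissue arrays were below them. Group means were 0.53 ± 0.045 in keratocyte, -0.097 ± 0.59 in fibroblast, -0.21 ± 0.27 in myofibroblast and 0.40 ± 0.24 in adult samples (SD, n = 3 each). The fibroblast mean depended on single arrays and was 0.22 without replicate 3 and -0.36 without replicate 1. As probe sets differ in how brightly they report, a value near 0 does not mean equal amounts of S-phase and mitotic RNA, and only differences between arrays can be read.

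**Figure D5:**
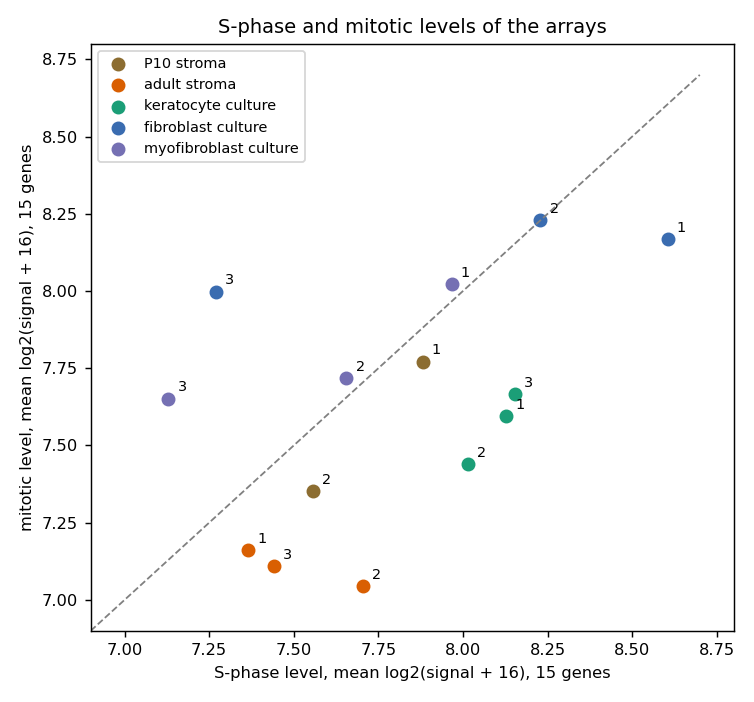
Each point is 1 array, with the S-phase level on the x axis and the mitotic level on the y axis (both mean log2(signal + 16) over 15 genes), coloured by group and numbered by replicate; the dashed line marks equal levels. The keratocyte arrays lie together below the line, and fibroblast and myofibroblast replicates 3 lie farthest above it, at differences of -0.73 and -0.52.

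Within fibroblast culture replicate 3 lay at the low end of the S-phase spread and replicate 1 at the high end. Fibroblast replicate 3 had the lowest signal of its group for 13 of 15 S-phase genes and for all 7 G1 genes, where 27.1% of all probe sets were lowest on that array. It was also lowest for 11 of 15 mitotic genes, but by less. Fibroblast replicate 1 was the highest of its group for 12 of 15 S-phase genes, where 39.9% of all probe sets were highest on that array. The ratio of the highest to the lowest of the 3 fibroblast signals had a median of 3.46 for S-phase genes and 1.50 for mitotic genes. In myofibroblast culture replicate 3 was lowest for 14 of 15 S-phase genes (24.1% of all probe sets) and for 8 of 15 mitotic genes, and these median ratios were 2.17 and 1.33. In keratocyte culture the medians were 1.25 and 1.18. Replicates 3 of the fibroblast and myofibroblast cultures thus shared a low S-phase level, and same-numbered arrays of these groups deviated together over all probe sets. The contractile markers, low on fibroblast replicate 3, were not low on myofibroblast replicate 3, and their relation to the S-phase genes was not tested.

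Between fibroblast and keratocyte culture, which differ in the kind and amount of serum, 1 of 37 members was called, against 1.37% of all probe sets (0.193% higher and 1.18% lower). It was Ccnb2, higher in fibroblast culture by 1.32 ± 0.29 (SE, adjusted p = 0.0399) without overlap of the arrays. The call was lost in 7 of 16 alternatives, with adjusted p between 0.0128 and 0.199, among them the fits without fibroblast replicate 2, without fibroblast replicate 3 and without any of the 3 keratocyte arrays. All 15 mitotic genes had a positive difference, with a median of 0.63, and 8 of them had an unadjusted limma p below 0.05. The shares of all probe sets with such a sign or such a p were not counted. The S-phase median was -0.056 and the G1 median -0.043, where the median of all probe sets was -0.093. The S-phase median became 0.31 without fibroblast replicate 3, beside 0.64 for mitotic genes, and -0.32 without fibroblast replicate 1 and -0.20 without fibroblast replicate 2. Centring each array on its median turned it to 0.054. Markers of macrophages and leukocytes were lower in fibroblast culture for 4 of 11 genes, with a summed signal of 1684 to 3134 against 3368 to 4270 in keratocyte culture. Pigment cell markers were lower for 4 of 4 genes (median -1.72), with a sum of 375 to 605 against 1862 to 2221. The part of both in these differences was not tested.

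Between myofibroblast and keratocyte culture 1 of 37 members was called, against 5.98% of all probe sets (1.1% higher and 4.88% lower). It was Aurka (0.58 ± 0.16, SE, adjusted p = 0.0432), whose values are within background and whose call was lost in 9 of 16 alternatives, without each of the 6 arrays among them (adjusted p from 0.0132 to 0.124). The S-phase median was -0.63 and the mitotic median 0.16, against -0.13 for all probe sets. Centring each array on its median moved these to -0.46 and 0.33, with all probe sets at 0.044. The mitotic median ran from 0.083 without myofibroblast replicate 1 to 0.29 without myofibroblast replicate 3. Markers of macrophages and leukocytes were lower in myofibroblast culture for 6 of 11 genes and pigment cell markers for 4 of 4, and their part was not tested. Centring moved the median of all probe sets by over 0.1 in the comparisons of keratocyte culture with adult stroma and with the other 2 cultures, and of adult with P10 stroma.

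TGF-beta1 added to the same medium gave no call among the members in the fit without pairing. A fit with the replicate pairs as a block, given below, called Ccnd1. Without pairing, limma called 0 of 37 members between myofibroblast and fibroblast culture, and 5 had an unadjusted p below 0.05. Of all probe sets 1.07% were called in that fit (0.289% higher and 0.781% lower), and their share with an unadjusted limma p below 0.05 was not counted. The 5 were Mki67, Kif11, Birc5, Lig1 and Pola1, all lower with TGF-beta1, by -0.64, -0.48, -0.51, -0.56 and -0.57. Class medians were -0.19 for G1, -0.55 for S-phase and -0.35 for mitotic genes, against -0.050 for all probe sets. The S-phase median rested on single arrays, at -0.16 without fibroblast replicate 1, -0.27 without myofibroblast replicate 3 and -0.92 without fibroblast replicate 3, and in the first of these fits it was closer to 0 than the mitotic median (-0.32). The mitotic median was -0.23 without myofibroblast replicate 3. With the replicate number as a block, which takes same-numbered arrays as pairs, Ccnd1 alone was called, lower by -0.73 (adjusted p = 0.0275). Lower signals with TGF-beta1 in all 3 same-numbered pairs were seen for 20 of 37 members, that is 2 of 7 G1, 9 of 15 S-phase and 9 of 15 mitotic genes, against 29.3% of all probe sets. Only Mcm5 was higher in all 3 pairs, against 16.1% of all probe sets.

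From P10 to adult stroma, the change with maturation, 0 of 37 members were called with limma, 6 had an unadjusted p below 0.05, and 3.71% of all probe sets were called (0.453% higher and 3.26% lower). The 6 were Ccnd2, Ccnd3, Mcm6, Mad2l1, Cdc20 and Kif11, all lower in the adult. Both means of Mcm6, Mad2l1 and Kif11 and the adult mean of Ccnd2 lay within background, and the Cdc20 arrays overlapped. The share of all probe sets with an unadjusted limma p below 0.05 was not counted. Mitotic genes had a median of -0.45 with 14 of 15 below 0, S-phase genes -0.21 and G1 genes -0.27, against -0.12 for all probe sets. Each median rested on the 2 P10 arrays, since without P10 replicate 1 the S-phase median turned to 0.032 and the mitotic median was -0.23, and without P10 replicate 2 they were -0.43 and -0.75. Without adult replicate 2 the S-phase median was -0.35. With centring the medians were -0.28 for mitotic and -0.040 for S-phase genes, with 0.048 for all. Kif11 was nearest to a call (-0.82 ± 0.22, SE, adjusted p = 0.05, above the threshold before rounding), and passed it under 4 other settings. The Gapdh 3′/5′ ratios were 0.896 and 0.936 on the P10 arrays, beside 2.12, 0.908 and 1.04 on the adult arrays. Pigment cell markers were lower in the adult for 3 of 4 genes, with a sum of 612 to 749.8 against 1631 and 4954 on the P10 arrays. Of the 4 contractile markers 1 was higher and 2 were lower in the adult, and of 10 epithelial markers 2 were lower. Lens markers summed to 7875 and 13088 on the P10 arrays and to 4963 to 8201 in the adult, with 0 of 6 called. The part of RNA integrity or of RNA from other cell types in this comparison was not tested.

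Other genes of the cell cycle were read from lists of general knowledge, 154 genes in all, of which 123 were measured and 114 passed the filter on low values. Together they were called at rates close to all probe sets, at 28.9% in keratocyte and in fibroblast culture and 30.7% in myofibroblast culture against adult stroma (31.1%, 30.8% and 33% of all probe sets). Of 40 other mitosis genes 5 rose and 2 fell in keratocyte culture, 14 rose and 0 fell in fibroblast culture (20 had an unadjusted p below 0.05 in limma), and 9 rose and 3 fell in myofibroblast culture. Their medians were 0.064, 0.42 and 0.18. Of 37 other replication genes 9 rose and 1 fell in keratocyte, 6 rose and 1 fell in fibroblast and 5 rose and 3 fell in myofibroblast culture, with medians of 0.43, 0.39 and 0.0057. Between fibroblast and keratocyte culture 33 of 40 other mitosis genes had a positive difference (median 0.35), and the kinesin genes Kif20a (1.36, adjusted p = 0.0484) and Kif2c (0.92, 0.0238) were called. Of the other replication genes 14 of 37 had a positive difference (median -0.049), and with limma none was called and 1 had an unadjusted p below 0.05. Shares of all probe sets were not counted for these signs and unadjusted p-values.

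Among these listed genes Cdc25a, the phosphatase that activates Cdk2 at entry to S phase, had the largest difference in the comparisons of adult stroma with P10 stroma and with fibroblast and myofibroblast culture, while in keratocyte culture the growth arrest gene Gadd45g rose further (2.97). It was at 1064 and 523 in P10 stroma and at 74, 104.5 and 72.8 in adult stroma, where it was within background. In culture it was at 724, 698 and 644 (keratocyte), 1224, 787 and 1377 (fibroblast), and 1286, 1769 and 1552 (myofibroblast). Adult stroma stood apart from all other groups. Cdc25a fell by 2.95 ± 0.29 (SE) from P10 to adult stroma (adjusted p = 0.000117), and rose by 2.83 ± 0.26 in keratocyte (1.21e-06), 3.50 ± 0.26 in fibroblast (1.32e-07) and 3.96 ± 0.26 in myofibroblast culture (3.44e-08). It was 1.13 ± 0.26 higher in myofibroblast than in keratocyte culture (0.0177). A second Cdc25a probe set did not show this, running from 82.3 to 169 over the 14 arrays with 0 calls in the 7 comparisons.

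Inhibitors of cyclin-dependent kinases were among the listed genes called between cultures. Cdkn1a (p21), a general inhibitor that also binds PCNA, was at 802, 676 and 730 in keratocyte, 301, 216 and 213 in fibroblast, and 258.5, 321 and 232 in myofibroblast culture. The keratocyte arrays were above all others, tissue included (233 to 441). It was lower in fibroblast than in keratocyte culture, by -1.55 ± 0.20 (SE, adjusted p = 0.00195), and lower in myofibroblast than in keratocyte culture, by -1.40 ± 0.20 (0.000796). A second, dimmer Cdkn1a probe set had group means of 329 in keratocyte, 205 in fibroblast and 208 in myofibroblast culture. It was called in 1 of the 7 comparisons, so these falls were not both called with it. Cdkn2b (p15), which blocks Cdk4, was at 66 and 66.7 in P10, 164.6, 100.5 and 67.2 in adult, 28.9, 29.6 and 25.8 in keratocyte, and 27.2, 40.4 and 41.1 in fibroblast samples. With TGF-beta1 it was at 286, 164 and 263, above all fibroblast and keratocyte arrays. It rose by 2.26 ± 0.26 (SE) over fibroblast culture (adjusted p = 0.00046) and by 2.49 ± 0.26 over keratocyte culture (7.66e-05), both of which lay within background. Cdkn1c (p57), which keeps cells at rest, was at 532 and 562 in P10, 53.1, 93 and 54.7 in adult, 241, 97.9 and 178 in keratocyte, 111, 68.7 and 121 in fibroblast, and 19.1, 8.94 and 12.1 in myofibroblast samples. It fell from P10 to adult stroma by 2.80 ± 0.32 (SE, adjusted p = 0.000263) and from fibroblast to myofibroblast culture by 1.97 ± 0.29 (0.00303). The adult, fibroblast and myofibroblast values all lie within background, so the latter difference has no firm order or size. The growth arrest gene Gas1 was also lower with TGF-beta1, at 166, 128 and 82.8 against 499.5, 276 and 623 in fibroblast culture (-1.74 ± 0.32, SE, adjusted p = 0.0169).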

How the data were processed

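Total RNA of 14 samples was hybridised to MG_U74Av2 arrays. The deposited values are probe set signals, each a linear intensity whose lowest value is 1, without detection calls. Per the labels, Microarray Suite 5.0 scaled them to 150, but the 2% trimmed means of the columns ran from 164 to 225, so the scaling as deposited is not settled. Of 12422 probe sets left after 66 controls, 10833 had 1 gene symbol, 396 several and 1193 none in the platform annotation.

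Probe sets with a mean signal of 50 or more in at least 1 group (10370, all 37 measured members among them) were fitted as log2(signal + 16) with limma 3.58.1 in R 4.3.3 (lmFit, eBayes with trend), with 1 mean per group, all 14 arrays and 9 residual degrees of freedom. Tests were two-sided, with Benjamini-Hochberg adjustment over the 10370 probe sets of each of 7 comparisons. Shares of all probe sets by unadjusted p or by the sign of a group difference were not counted, so such counts of members stand without them. The script was tested on simulated data. The 40 members and all lists were chosen with earlier results of these data known. Values in every sample are given for a fixed set of members (Ccnd1, Ccnd2, Ccnd3, Cdk4, E2f1, Mcm2, Mcm5, Mcm6, Pcna, Rrm2, Tk1, Cdk1, Ccna2, Cdc20, Mki67, Top2a and Birc5, of those measured) and for the 3 members of each class with the largest difference past the threshold in a comparison. From the other lists, up to 4 genes past the threshold in each direction could be named. Plk1's and Mcm5's further probe sets were singled out after their values were seen.

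Replicate numbers were checked for pairing by the correlation of same-numbered arrays' deviations from their group means. It was 0.62, 0.68 and 0.53 between myofibroblast and fibroblast culture, over 0.1 for each number, and not over 0.1 for each number in the other 6 comparisons. Number 2 alone gave 0.57 between fibroblast and keratocyte and 0.41 between myofibroblast and keratocyte culture. Replicate 2 was the lowest of its group for 60.4% of all probe sets in keratocyte, 51.7% in fibroblast and 56.4% in myofibroblast culture. The pairing of myofibroblast and fibroblast arrays is read from this correlation only, as the labels do not state it. Alternatives were the added constant, the filter, quantile normalization, centring, only the groups compared, the replicate block, the choice of probe set and each array left out. Promoter windows came from RefSeq (GRCm38.p6) and were matched by symbol.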

Additional observations from a re-analysis of the deposited data

How the results depend on the processing

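The 46 calls of members were recomputed under each alternative: 26 held in every one and 20 were lost in at least 1, and no result reversed. Counts of called members that moved were as follows. For adult minus P10 stroma the count of 0 became 1 with an added constant of 1, with no filter, with the replicate block and with the median of a gene's probe sets (Kif11 in the first, second and last, Cdc20 with the block, adjusted p = 0.0115), and it ranged from 0 to 1 when single arrays were left out. For keratocyte culture minus adult stroma the count of 13 became 21 with only those groups in the fit, and ranged from 6 (without keratocyte replicate 3) to 14 (without adult replicate 2). For fibroblast culture minus adult stroma the 18 ranged from 14 to 24 and for myofibroblast culture minus adult stroma the 13 from 10 to 14 over single arrays left out. For fibroblast minus keratocyte culture the count of 1 was 0 with an added constant of 1, 3 with a constant of 64, 3 with quantile normalization, 4 with centring, 0 with only those groups, and 0 to 1 with single arrays left out. For myofibroblast minus keratocyte culture it was 0 with no filter, 2 with quantile normalization, 2 with centring, 2 with only those groups, 0 with the replicate block, and 0 to 1 with single arrays left out. For myofibroblast minus fibroblast culture it was 1 with the replicate block, which took the count of all probe sets from 111 to 253. In the comparisons with adult stroma the block gave 13, 19 and 13. The causes were not tested.

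The S-phase minus mitotic level in P10 stroma (0.16) was -0.063 with the median over probe sets and 0.0315 over members with a mean signal at or above background, an alternative chosen after seeing the data. The median over probe sets lowered it in every group, in keratocyte culture from 0.53 to 0.33, in adult stroma from 0.40 to 0.25, in fibroblast culture from -0.097 to -0.35 and in myofibroblast culture from -0.21 to -0.44. With a constant of 64 it was 0.46 in keratocyte culture, -0.024 in fibroblast and -0.12 in myofibroblast culture, and with a constant of 1 it was -0.16 in fibroblast culture. Left-out arrays gave 0.11 to 0.20 in P10, 0.27 to 0.50 in adult, 0.51 to 0.55 in keratocyte, -0.36 to 0.22 in fibroblast and -0.29 to -0.060 in myofibroblast samples. Groups of 2 or 3 arrays, undocumented scaling and signals near background limit all of these values.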
